A study of Mus musculus with 24 samples.

Results

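A set of 6 genes for surface proteins by which mouse bone marrow stem and progenitor cells are sorted were followed across 8 sorted groups: *Kit*, *Ly6a*, *Flt3*, *Cd34*, *Slamf1* and *Cd48*. They were chosen by symbol, as the genes of the antigens that define the LSK compartment and its subdivisions, and their identifiers matched 6 of the 17149 genes in the deposited table. All 6 also passed the filter on low values that left 16215 genes for testing. RNA had been sequenced from 24 bulk libraries of bone marrow LSK cells, the fraction that lacks lineage antigens and carries Sca1 and Kit. Control mice (Ctrl) are labelled wild type with homozygous floxed alleles of *Tal1*, a transcription factor gene of early blood cells. Knockout mice (KO) carry the same floxed alleles and VaviCre, a Cre recombinase driven in blood cells by *Vav* regulatory sequence. Every group carries Rag2GFP, a green fluorescent reporter of *Rag2*, whose product rearranges antigen receptor genes. Within each genotype, CD135-negative LSK cells (labelled HSC, haematopoietic stem cells) and CD135-positive LSK cells (labelled LMPP, lymphoid-primed multipotent progenitors) were collected as GFP-negative and GFP-positive fractions. Each of the 8 groups had 3 libraries. The labels give no animal age or strain beyond these alleles, and they do not say that replicates came from separate animals, so a p-value here sets a difference against library-to-library spread, part of which may be technical.

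These surface proteins are the usual handles for taking the stem cell compartment apart. *Kit* encodes the receptor for stem cell factor, and *Flt3* encodes CD135, the receptor for FLT3 ligand. Both are class III receptor tyrosine kinases, and CD135 is gained as stem cells give way to multipotent and lymphoid-primed progenitors. *Ly6a* encodes Sca1, a small protein held on the membrane by a lipid anchor. *Cd34* encodes a sialomucin that is low on adult mouse long-term stem cells and higher on the progenitors they give rise to. *Slamf1* (CD150) and *Cd48* belong to the SLAM family of immune cell receptors. CD150 without CD48 is the common signature of long-term stem cells, and CD48 marks more advanced progenitors. In this study Sca1, Kit, CD135 and the GFP reporter are named as gates. The labels name no gate on CD34, CD150 or CD48, so those transcripts describe what the gates held and were not used to sort it.

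On GRCm38 (mm10), with GENCODE M21 gene models, both receptor kinases lie on chromosome 5. *Kit* (ENSMUSG00000005672) spans 75574916 to 75656722 on the plus strand, and *Flt3* (ENSMUSG00000042817) spans 147330741 to 147400489 on the minus strand. The *Slamf1* gene (ENSMUSG00000015316, chromosome 1, 171767127 to 171801184) and *Cd48* (ENSMUSG00000015355, chromosome 1, 171682009 to 171705258) lie close together on the plus strand. *Cd34* (ENSMUSG00000016494) spans 194938819 to 194961279 on the plus strand of the same chromosome. *Ly6a* (ENSMUSG00000075602) spans 74994877 to 74998031 on the minus strand of chromosome 15. Of the stretches of 76 bases, the number of sequencing cycles, in *Ly6a* transcripts, 77 of 1311 (5.87%) also occur in *Ly6c1* or *Ly6i*, so part of its count is uncertain between paralogs. *Cd34* shares 148 exon bases with an antisense gene on the other strand. *Slamf1* shared 43 of 6081 stretches with transcripts of other genes, and *Kit*, *Flt3* and *Cd48* shared none.

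Upstream sequences of 3 genes are printed because these genes moved in different ways across the gates: *Flt3* rose with CD135, *Slamf1* fell with it, and *Kit* fell less. Each is the 250 bases before the gene's start in RefSeq's promoter table for GRCm38.p6, written 5′ to 3′ on the gene's own strand. Capitals mark CAGNTG or its reverse complement, an E-box form, which together with the GATA form AGATAA was searched on both strands. The intervals are chr5:147400490-147400739 (minus strand) for *Flt3*, chr1:171766882-171767131 (plus strand) for *Slamf1* and chr5:75574737-75574986 (plus strand) for *Kit*. RefSeq's starts need not equal those of GENCODE, and the *Slamf1* and *Kit* windows end inside the GENCODE spans given above.
Flt3: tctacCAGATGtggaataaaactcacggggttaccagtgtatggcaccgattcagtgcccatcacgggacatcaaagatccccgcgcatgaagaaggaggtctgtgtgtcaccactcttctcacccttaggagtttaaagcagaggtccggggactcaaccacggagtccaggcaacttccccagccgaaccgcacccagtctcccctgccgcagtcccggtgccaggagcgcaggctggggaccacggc
Slamf1: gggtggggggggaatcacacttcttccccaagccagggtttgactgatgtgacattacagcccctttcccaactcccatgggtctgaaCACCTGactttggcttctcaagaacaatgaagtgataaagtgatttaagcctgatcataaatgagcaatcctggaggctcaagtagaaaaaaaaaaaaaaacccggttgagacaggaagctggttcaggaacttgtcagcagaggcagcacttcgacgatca
Kit: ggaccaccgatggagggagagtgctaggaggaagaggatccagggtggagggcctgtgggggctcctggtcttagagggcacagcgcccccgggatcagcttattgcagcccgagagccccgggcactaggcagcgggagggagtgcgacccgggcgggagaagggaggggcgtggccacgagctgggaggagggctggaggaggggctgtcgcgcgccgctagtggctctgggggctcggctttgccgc
The *Flt3* window holds 1 match, CAGATG, and the *Slamf1* window holds 1, read as CACCTG on this strand. The *Kit* window holds none, and no match was found for *Cd34* or *Cd48*. AGATAA was in none of these 5 windows. The bases that follow the *Cd48* window were not found near the start of a GENCODE transcript of that gene. Among all 27025 windows of this length, 44.5% held CAGNTG and 10.3% held AGATAA. A match is a description of the letters and not a binding site.

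Values are the normalised counts that the authors deposited, with library totals from 6906083 to 11969093, and the depth in reads is unknown. In Ctrl HSC GFP-positive replicate 2 and KO LMPP GFP-positive replicate 3, 11982 and 11684 genes stood above 1 normalised count, whereas the remaining libraries had 13583 to 15957. This pair is named the 2 libraries of low detection, and many but not all values that include them are also given without them. The label checks went in the direction of the labels: *Tal1* was lower in KO (averaged log2 difference -2.12, SE 0.35, limma adjusted p = 0.0022) and *Rag2* was higher in GFP-positive cells (3.65, SE 0.26, adjusted p = 1.4e-09). By population *Tal1* passed only in GFP-positive LMPP (-3.82, limma adjusted p = 0.031). It was -2.34 in GFP-negative HSC, -1.02 in GFP-positive HSC and -1.32 in GFP-negative LMPP. KO means in these were 364, 243 and 306 normalised counts, so some *Tal1* transcript remained. Of 13 lineage genes that the LSK gate should exclude, 10 were in the table. *Cd3e* (T cells), *Cd79a* (B cells), *Ly6g* (neutrophils), *Klrb1c* (NK cells) and *Cd5* each had a median under 0.2 normalised counts over the 24 libraries, whereas *Itgam*, the CD11b gene, had a median of 548. In bulk RNA, fewer cells of a type and less RNA per cell cannot be told apart.

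Per kilobase of exon, 5 of the genes stood at a like level when averaged over all 24 libraries. The mean was 542 normalised counts per kilobase for *Kit*, 535 for *Cd34*, 517 for *Flt3*, 463 for *Cd48* and 364 for *Ly6a*. *Slamf1* stood far lower, at 9.81. The genes also differed in how far their level spread over the groups. The highest group mean was 14.4 times the lowest for *Ly6a*, 14.1 times for *Flt3* and 10.9 times for *Slamf1*. It was 4.74 times for *Cd48*, 2.55 times for *Kit* and 2.11 times for *Cd34*.

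**Figure D1:**
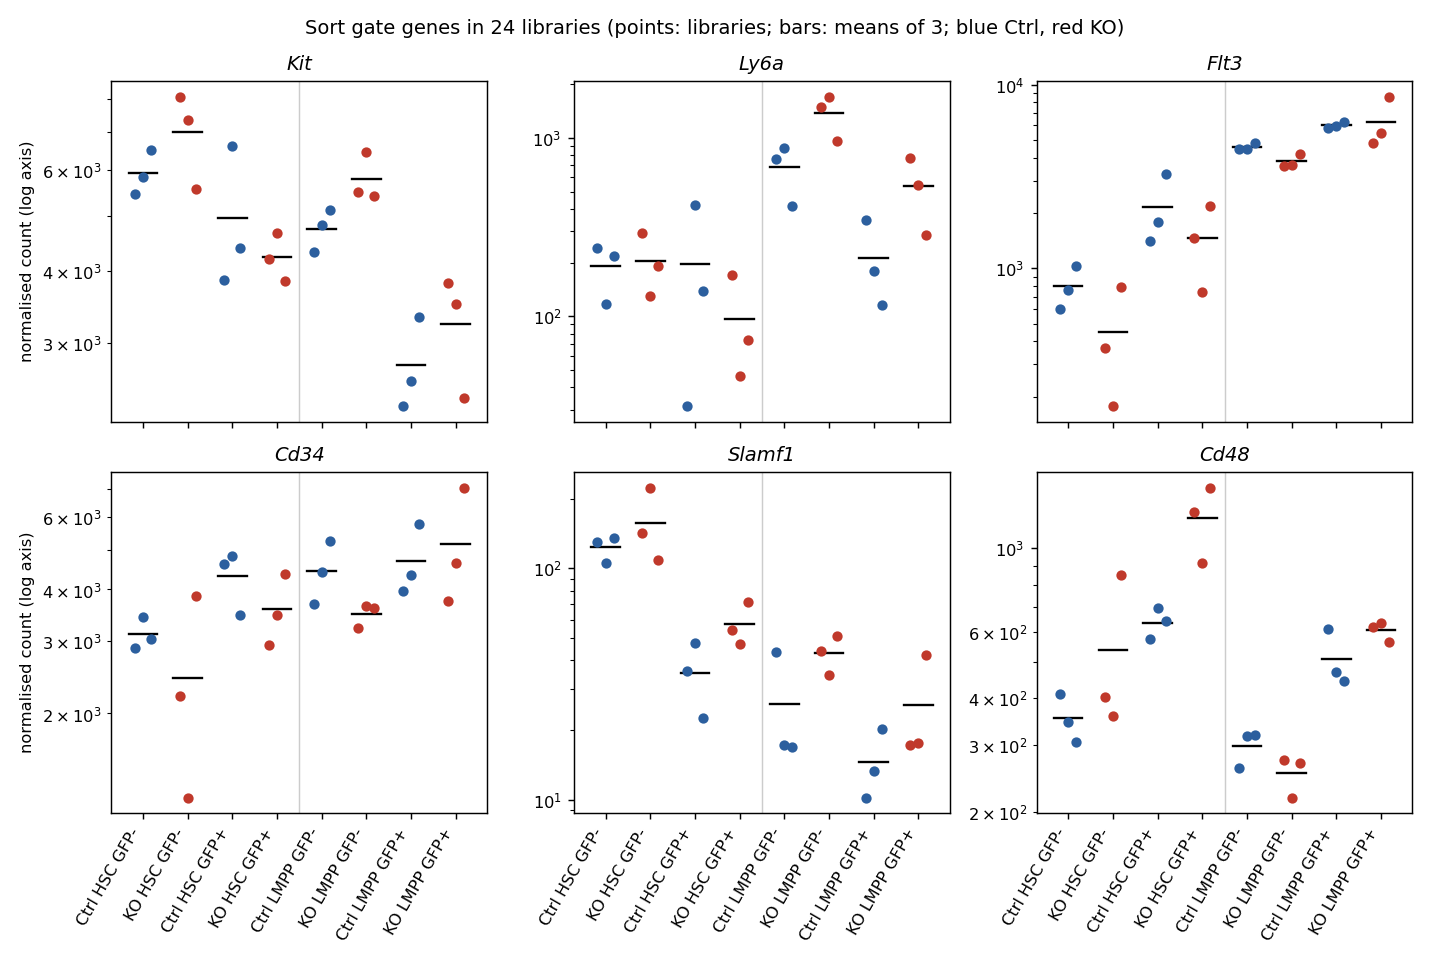
Normalised counts (vertical axes, log scale) of the 6 surface genes in each of the 24 libraries, by sorted group. Points are libraries (blue Ctrl, red KO) and bars are means of 3 libraries. *Flt3* runs from 177 to 8621 with every LMPP library above every HSC library, while *Slamf1* runs from 10.2 to 223 and is highest in GFP-negative HSC.

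The CD135 gate was examined first, as a check of the sort, through its own gene. *Flt3* stood at 597, 759 and 1033 normalised counts in Ctrl HSC GFP-negative replicates 1 to 3 (mean 797 ± 220.3, SD, n = 3) and at 369, 177 and 796 in KO (447 ± 317). GFP-positive HSC held 1414, 1790.4 and 3256 in Ctrl (2153 ± 973) and 1461, 747 and 2189 in KO (1466 ± 721). All 12 HSC libraries therefore carried the transcript although these cells were sorted as negative for its protein. Among LMPP, the GFP-negative libraries held 4472, 4473 and 4813 in Ctrl (4586 ± 196) and 3623, 3637 and 4199 in KO (3819 ± 329). The GFP-positive ones held 5806, 5957 and 6248 in Ctrl (6003 ± 225) and 4799, 5459.9 and 8621 in KO (6293 ± 2042), and the highest of these values is in the library of low detection. No LMPP library overlapped an HSC library. Ordered by group mean, both GFP-positive LMPP groups came first and overlapped each other. Ctrl GFP-negative LMPP came next, below all Ctrl GFP-positive LMPP libraries, but KO GFP-positive replicate 1 (4799) lay below Ctrl GFP-negative replicate 3 (4813). KO GFP-negative LMPP followed without overlap. The 4 HSC groups followed, and each overlapped its neighbour in the order.

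Averaged over genotype and GFP, *Flt3* was 5.32-fold higher in LMPP than in HSC (log2 change 2.41, SE 0.20, limma adjusted p = 1.5e-08, 12 against 12 libraries). Because CD135 protein set this gate, the difference checks the sort and is not an independent result. Within single populations it rose in 3 of 4 comparisons. The log2 change was 2.55 in Ctrl GFP-negative cells (SE 0.40, limma adjusted p = 0.0015), 3.33 in KO GFP-negative cells (adjusted p = 3.5e-05) and 2.18 in KO GFP-positive cells (adjusted p = 0.0056). In Ctrl GFP-positive cells the difference of 1.57 did not pass (limma adjusted p = 0.0535), although all 3 LMPP libraries lay above the HSC libraries. Leaving out the 2 libraries of low detection gave 1.48, which passed (adjusted p = 0.046). The call in KO GFP-positive cells did not hold without KO HSC GFP-positive replicate 2 (adjusted p = 0.0769).

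Reporter activity went with more *Flt3* transcript inside the CD135 gates, which the reporter did not define. Averaged over genotype and CD135, GFP-positive cells held 2.09-fold more than GFP-negative cells (log2 change 1.07, SE 0.20, limma adjusted p = 0.0013). In single populations the log2 difference was 1.37 in Ctrl HSC (limma adjusted p = 0.0616), 1.83 in KO HSC (adjusted p = 0.031), 0.39 in Ctrl LMPP and 0.68 in KO LMPP. Only the change in KO HSC passed, and its 3 GFP-positive libraries overlapped the GFP-negative ones because KO HSC GFP-positive replicate 2 lay below GFP-negative replicate 3. That call was lost without KO HSC GFP-negative replicate 1 or 2 or GFP-positive replicate 1 or 3 (limma adjusted p = 0.138, 0.461, 0.156 and 0.328). With the 2 libraries of low detection left out, the difference in Ctrl HSC was 1.46 and passed (adjusted p = 0.043). The difference between the GFP effects in LMPP and HSC was -1.07 on the log2 scale and did not pass (limma adjusted p = 0.579).

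*Kit* was high throughout, yet graded. GFP-negative HSC held 5459.9, 5850.0 and 6504 normalised counts in Ctrl (5938 ± 528, SD, n = 3) and 8066, 7346 and 5573 in KO (6995 ± 1283). GFP-positive HSC held 3858, 6626 and 4398 in Ctrl (4961 ± 1467), where the library of low detection was the highest, and 4204, 4672 and 3855 in KO (4244 ± 410.3). The means of GFP-negative HSC were thus the highest of the 8 groups. The GFP-negative LMPP libraries held 4323, 4818 and 5109.8 in Ctrl (4750.0 ± 398) and 5500.0, 6456 and 5403 in KO (5786 ± 582). GFP-positive LMPP were lowest, with 2327, 2577 and 3329 in Ctrl (2744 ± 522) and 3817, 3511 and 2405 in KO (3244 ± 742). In the order of group means each group overlapped the next, except KO GFP-positive HSC and KO GFP-positive LMPP, which did not.

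*Kit* fell with both gates. It was 1.37-fold lower in LMPP than in HSC (averaged log2 change -0.46, SE 0.11, limma adjusted p = 0.013) and 1.59-fold lower in GFP-positive than in GFP-negative cells (-0.67, SE 0.11, adjusted p = 0.00032). All 4 single comparisons had a negative difference for each gate, and none of these 8 passed by itself. The nearest were KO LMPP by GFP, at -0.86 (limma adjusted p = 0.0512), and Ctrl GFP-positive LMPP against HSC, at -0.83 (adjusted p = 0.0634). Left without KO LMPP GFP-positive replicate 1 or 2 the first passed (adjusted p = 0.0379 and 0.0465), and left without Ctrl HSC GFP-positive replicate 1 or 3 the second passed (adjusted p = 0.0289 and 0.0327).

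*Ly6a*, the Sca1 gene, was on average higher in LMPP than in HSC although both were sorted as Sca1-positive. GFP-negative HSC held 242, 118 and 217 normalised counts in Ctrl (192 ± 65.6, SD, n = 3) and 294, 129.7 and 191 in KO (205 ± 83.2). GFP-positive HSC held 31.3, 421 and 139 in Ctrl (197 ± 201) and 170.0, 46.1 and 73.2 in KO (96.4 ± 65.1). The value of 421 is in the library of low detection and is the highest of all HSC libraries. Among GFP-negative LMPP, Ctrl libraries held 764, 878 and 416 (686 ± 240.4) and KO libraries 1494, 1703 and 959.6 (1385 ± 383). GFP-positive LMPP held 344, 179 and 115 in Ctrl (213 ± 118) and 773, 546 and 285 in KO (535 ± 244). KO GFP-negative LMPP stood above every other group without overlap, and all later neighbours in the order of group means overlapped.

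*Ly6a* was 3.79-fold higher in LMPP than in HSC (averaged log2 change 1.92, SE 0.32, limma adjusted p = 0.00041). It was 2.34-fold lower in GFP-positive cells (-1.22, SE 0.32, adjusted p = 0.018). The LMPP against HSC difference was 2.77 in KO GFP-negative cells, which passed (limma adjusted p = 0.032). It was 2.51 in KO GFP-positive cells (adjusted p = 0.0779), 1.81 in Ctrl GFP-negative cells (adjusted p = 0.556) and 0.61 in Ctrl GFP-positive cells (adjusted p = 0.706). The call in KO GFP-negative cells was lost whichever of the 6 libraries was left out, with adjusted p between 0.054 and 0.269. Without the 2 libraries of low detection the difference in KO GFP-positive cells was 2.90 and passed (adjusted p = 0.0059), and that in Ctrl GFP-positive cells was 1.47 (adjusted p = 0.14). By GFP, the difference in Ctrl HSC was -0.54 with all libraries and -1.40 without them, and neither passed (limma adjusted p = 0.706 and 0.152).

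*Cd34* varied least. GFP-negative HSC held 2889.8, 3426 and 3032 normalised counts in Ctrl (3116 ± 278, SD, n = 3) and 2207, 1250.2 and 3860.4 in KO (2439 ± 1321), the lowest group mean and a wide one. GFP-positive HSC held 4609.8, 4836 and 3475 in Ctrl (4307 ± 729) and 2927, 3464 and 4351 in KO (3581 ± 719). GFP-negative LMPP held 3684, 4399.8 and 5244 in Ctrl (4443 ± 781) and 3221, 3641 and 3607 in KO (3489.7 ± 233). The means of GFP-positive HSC and GFP-negative LMPP thus lay between 3489.7 and 4443. GFP-positive LMPP held 3968, 4328 and 5783 in Ctrl (4693 ± 961) and 3750.2, 4646 and 7067 in KO (5154 ± 1716), and the highest value is again in the library of low detection. Every group overlapped the next in the order of means.

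Neither gate moved *Cd34* past the threshold. Averaged, the log2 difference was 0.44 for LMPP against HSC (95% interval 0.14 to 0.74, limma adjusted p = 0.0946) and 0.43 for GFP-positive against GFP-negative cells (0.13 to 0.73, adjusted p = 0.0735). Every one of the 8 single differences by gate was above 0, from 0.07 to 0.68, with no call. Single libraries set on which side of the threshold the averages fell. Without KO HSC GFP-negative replicate 3 both passed, the CD135 average at limma adjusted p = 0.0135 and the GFP average at adjusted p = 0.0115. The GFP average also passed without Ctrl HSC GFP-positive replicate 3 (adjusted p = 0.0496) or KO LMPP GFP-positive replicate 1 (adjusted p = 0.042). Without the 2 libraries of low detection the averages were 0.40 and 0.35, and neither passed (limma adjusted p = 0.0758 and 0.132).

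*Slamf1* marked GFP-negative HSC. Those libraries held 129.8, 105 and 136 normalised counts in Ctrl (124 ± 16.2, SD, n = 3) and 141, 223 and 108 in KO (158 ± 59.0), above all libraries of the other 6 groups. GFP-positive HSC held 36.1, 47.4 and 22.6 in Ctrl (35.4 ± 12.4) and 54.2, 47.0 and 71.2 in KO (57.4 ± 12.4). GFP-negative LMPP held 43.3, 17.2 and 16.9 in Ctrl (25.8 ± 15.2) and 44.0, 34.5 and 51.1 in KO (43.2 ± 8.32). The lowest values were those of GFP-positive LMPP, at 10.2, 13.2 and 20.1 in Ctrl (14.5 ± 5.07) and 17.1, 17.6 and 42.0 in KO (25.6 ± 14.2), where 42.0 is in the library of low detection.

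The *Slamf1* transcript fell by 1.53 on the averaged log2 scale from HSC to LMPP (SE 0.30, limma adjusted p = 0.0021), which is 2.89-fold, and all 4 pairs of groups were free of overlap. From GFP-negative to GFP-positive cells it fell by 1.11 (SE 0.30, adjusted p = 0.02), or 2.16-fold. No single comparison passed. The widest was Ctrl GFP-negative LMPP against HSC, at -2.20 (limma adjusted p = 0.164), and by GFP it was Ctrl HSC, at -1.74 (adjusted p = 0.115). Both passed without the 2 libraries of low detection, at -2.20 and -1.96 (adjusted p = 0.0326 and 0.0491). At 10.2 to 223 normalised counts this is the member nearest to the pseudocount of 4.1, so its log2 differences are understated most.

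*Cd48* went with the reporter. GFP-negative HSC held 410.1, 347 and 306 normalised counts in Ctrl (355 ± 52.2, SD, n = 3) and 404, 358 and 849.8 in KO (537 ± 271). GFP-positive HSC held 573, 694 and 639.7 in Ctrl (636 ± 60.4) and 1252, 913 and 1449 in KO (1205 ± 271). KO GFP-positive HSC stood above all 21 other libraries. GFP-negative LMPP were lowest, with 261, 317 and 319 in Ctrl (299 ± 32.9) and 275, 218 and 269 in KO (254 ± 31.4). GFP-positive LMPP held 612, 471 and 446 in Ctrl (509.6 ± 89.8) and 619, 635 and 564 in KO (606 ± 37.7). In each of the 4 populations the GFP-positive and GFP-negative libraries did not overlap, with the GFP-positive ones higher.

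*Cd48* was 2.03-fold higher in GFP-positive cells (averaged log2 change 1.02, SE 0.15, limma adjusted p = 0.00011). It was 1.54-fold lower in LMPP than in HSC (-0.62, SE 0.15, adjusted p = 0.017). By GFP, the single differences were 0.84 in Ctrl HSC, 0.75 in Ctrl LMPP, 1.24 in KO HSC and 1.25 in KO LMPP, of which the last passed (limma adjusted p = 0.043). That call was lost on leaving out any 1 of its 6 libraries, with adjusted p from 0.0645 to 0.198. The KO HSC difference passed without KO HSC GFP-negative replicate 3 (adjusted p = 0.0086), the library at 849.8. Summed levels of a fixed list of 10 myeloid genes differed between the GFP gates in HSC too. They were 11112 to 28526 normalised counts in Ctrl GFP-negative HSC and 57894 to 130386 in Ctrl GFP-positive HSC, and 5198 to 6177 against 15429 to 57642 in KO. In LMPP, where *Cd48* was also higher with GFP, the myeloid sums overlapped between the GFP gates. They were 6795 to 9164 in GFP-negative and 5000 to 12431 in GFP-positive Ctrl LMPP, and 1730 to 3108 against 2665 to 9033 in KO. Between genotypes in GFP-positive HSC the order was the opposite, with a median sum of 45149 in KO against 83771 in Ctrl where *Cd48* was higher in KO. The part of these genes in the *Cd48* values was not tested.

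Across the averaged comparisons, then, 5 of the 6 genes changed with each gate and none with genotype. For LMPP against HSC, *Flt3* and *Ly6a* rose and *Kit*, *Slamf1* and *Cd48* fell, where 4.18% of all 16215 genes tested passed in either direction. The rise of *Flt3* there checks the sort, since CD135 protein set the gate, and is not an independent result. For GFP-positive against GFP-negative cells, *Flt3* and *Cd48* rose and *Kit*, *Ly6a* and *Slamf1* fell, where 7.23% of all genes passed. *Ly6a* and *Cd48* went opposite ways with the gates. *Ly6a* was higher with CD135 and lower with GFP, and *Cd48* was lower with CD135 and higher with GFP. *Flt3* was higher with both, and *Kit* and *Slamf1* were lower with both.

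**Figure D2:**
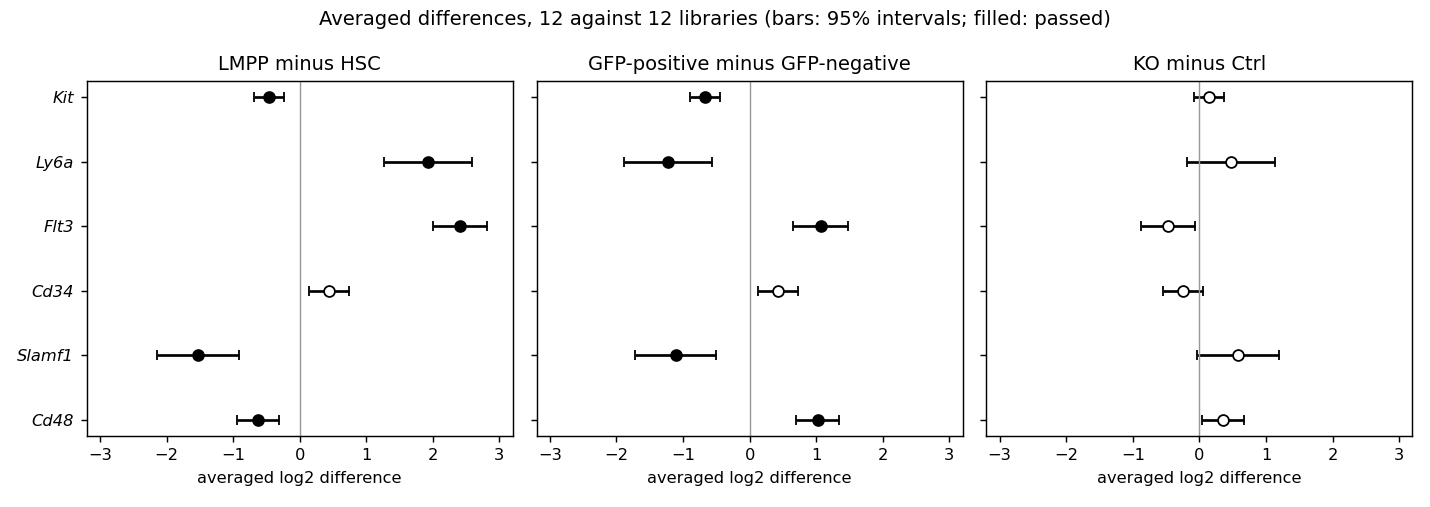
Averaged log2 differences (horizontal axes) of the 6 genes for each gate and for genotype, 12 against 12 libraries, with 95% intervals from limma. Filled points passed adjustment over all genes tested, which holds for 5 genes with each gate and for none with genotype. *Flt3*, the gene of the CD135 gate, stands at 2.41 for LMPP against HSC.

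The median log2 difference over all genes was 0.02 for LMPP against HSC and -0.14 for GFP. Over the 6 members it was -0.01 and -0.12, since they moved both ways. Scaling libraries to their totals moved the median of all genes for GFP by -0.14 and quantile normalisation moved it by 0.21. The directions of the averaged calls were the same under both, and the one call lost was that of *Slamf1* by GFP under quantile normalisation (-0.80, limma adjusted p = 0.144). Without the 2 libraries of low detection all 10 averaged calls were kept. For example, *Ly6a* was 2.24 for LMPP against HSC (adjusted p = 1.4e-06) and *Kit* was -0.35 (adjusted p = 0.018).

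An exact two-sided permutation test was made over the 6 description numbers, each shared by 4 populations of 1 genotype. For the gates it set the mean difference over numbers against all flips of their signs. For each gate, all 6 members had the same sign in 6 of 6 numbers, *Cd34* included, and the exact p was 0.03125 for each, the smallest that 6 sign flips can give. Adjusted over the 21 such tests made, each became 0.0505 by exact permutation and missed the threshold. The result of *Flt3* by CD135 again checks the sort, since CD135 protein set that gate. Without the 2 libraries of low detection the exact p for *Cd34* was 0.09375 by CD135 and 0.0625 by GFP.

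Of the 12 single comparisons, in which 3 libraries met 3, 8 concerned the gates and held all 6 calls. For LMPP against HSC the background was 0.37% of genes called in Ctrl GFP-negative cells (1 of 6 members rose), 0.894% in Ctrl GFP-positive cells (0 of 6), 0.876% in KO GFP-negative cells (2 rose) and 0.611% in KO GFP-positive cells (1 rose). For GFP it was 2.72% in Ctrl HSC (0 of 6), 0.0555% in Ctrl LMPP (0 of 6), 0.376% in KO HSC (1 rose) and 1.15% in KO LMPP (1 rose). *Flt3*, the gene of the CD135 gate, held 3 of the calls by that gate, and these check the sort. Where limma called 0, the members with an unadjusted p under 0.05 numbered 2 in Ctrl GFP-positive cells by CD135 (*Flt3* among them), 3 in Ctrl HSC by GFP and 3 in Ctrl LMPP by GFP, where 15.3, 17.7 and 4.96% of all genes had one. Libraries that did not overlap were more common than calls. For LMPP against HSC they numbered 5, 3, 4 and 5 of 6 members in the same order, with *Flt3* among them each time, where 14.8, 14.3, 22.3 and 14.5% of all genes did not overlap. For GFP they numbered 4, 4, 3 and 5 of 6, where 17.8, 14.8, 15.5 and 19.1% of all genes did not overlap.

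**Figure D3:**
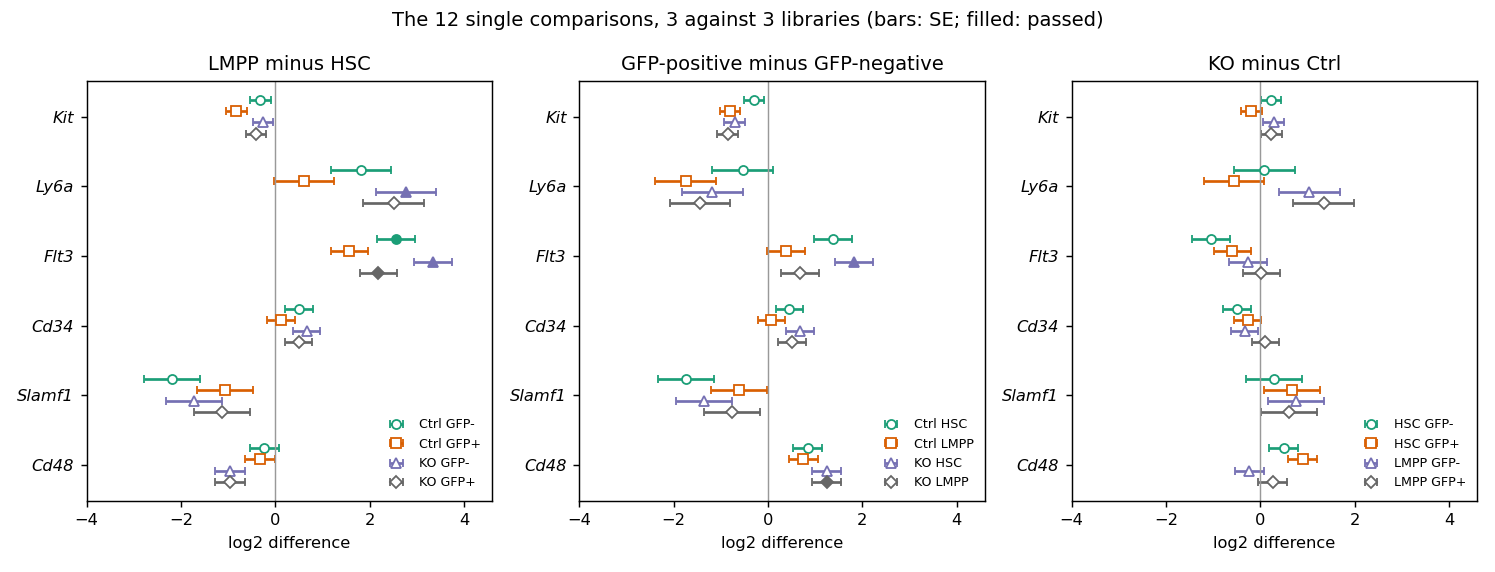
Log2 differences of the 6 genes in the 12 single comparisons of 3 against 3 libraries (horizontal axes), with bars for SE and filled symbols for the 6 calls. *Flt3* holds 4 of the calls, at 2.55, 3.33, 2.18 and 1.83, the first 3 of them for its own CD135 gate. *Ly6a* (2.77) and *Cd48* (1.25) hold 1 each.

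Between KO and Ctrl, none of the 6 genes moved past the threshold. Averaged over the 4 populations, the log2 difference of KO minus Ctrl was 0.14 for *Kit* (95% interval -0.09 to 0.36), 0.48 for *Ly6a* (-0.18 to 1.14), -0.47 for *Flt3* (-0.88 to -0.06), -0.25 for *Cd34* (-0.55 to 0.05), 0.58 for *Slamf1* (-0.03 to 1.19) and 0.36 for *Cd48* (0.04 to 0.67). The limma adjusted p lay between 0.561 and 0.825, where 0.469% of all genes passed, and 2 members, *Flt3* and *Cd48*, had an unadjusted p under 0.05, as did 7.73% of all genes. Equality of the genotypes is not shown for any member by these intervals. The exact two-sided permutation p over 3 against 3 description numbers was 0.1 for *Slamf1* and *Cd48*, the smallest this design allows, and 0.3 to 0.5 for the others.

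By population, no member passed in KO against Ctrl, where 0.16% of genes passed in HSC GFP-negative cells, 0.432% in HSC GFP-positive cells, 0.0555% in LMPP GFP-negative cells and 0.0432% in LMPP GFP-positive cells. With limma, 1, 1, 0 and 1 of the 6 members had an unadjusted p under 0.05 in these populations, where 3.44, 15.3, 2.48 and 7.72% of all genes did. Members whose libraries did not overlap between genotypes numbered 0, 1, 4 and 0 of 6, where 12.7, 14.3, 10.8 and 9.55% of all genes did not overlap. The nearest was *Cd48* in HSC GFP-positive cells, with every KO library (913 to 1449) above every Ctrl library (573 to 694), at 0.90 (95% interval 0.26 to 1.53, limma adjusted p = 0.178). The 4 members in LMPP GFP-negative cells were *Kit* (0.28) and *Ly6a* (1.04), above in KO, and *Flt3* (-0.27) and *Cd34* (-0.34), below. *Flt3* in HSC GFP-negative cells was -1.05 (95% interval -1.87 to -0.23, limma adjusted p = 1).

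Levels of other cell types' genes differed between the genotypes beside these values. Mast cells carry Kit protein as a rule. A mast cell and basophil list of 11 genes in the table summed to 2325, 10261 and 10632 normalised counts, from lowest to highest, in KO HSC GFP-negative libraries. In Ctrl libraries of that population it summed to 239 to 507. In KO LMPP GFP-negative libraries it summed to 83.7 to 3192 against 7.88 to 26.0. In GFP-positive HSC the sums of 1722 to 3470 in KO overlapped those of 617 to 1796 in Ctrl, and in GFP-positive LMPP those of 6.54 to 105 in KO spanned the 21.8 to 40.3 in Ctrl. Averaged, 5 of 11 of these genes rose in KO and none fell, led by *Gzmb* (3.25), *Cma1* (3.17), *Mcpt4* (2.94) and *Ms4a2* (2.56). Of 13 erythroid genes 6 rose, led by *Hbb-bs* (4.85), *Slc4a1* (4.32), *Hba-a2* (4.22) and *Hba-a1* (4.02), and globin copies are near-identical. The erythroid sum in KO LMPP GFP-positive libraries was 2851, 3351 and 11141, the last in the library of low detection, and without the 2 such libraries 7 of 13 rose. The part of both lists in the genotype values of *Kit* or the other members was not tested. The KO library of HSC GFP-negative cells with the lowest mast cell sum, replicate 3, also had the lowest *Kit* (5573) and the highest *Cd48* (849.8), *Cd34* (3860.4) and *Flt3* (796) of the 3. Other groups did not repeat this in full. In Ctrl HSC GFP-negative cells replicate 1 (sum 239) had the lowest *Kit* (5459.9) and highest *Cd48* (410.1), but the lowest *Cd34* (2889.8) and *Flt3* (597). In KO LMPP GFP-negative cells replicate 3 (83.7) had the lowest *Kit* (5403) and highest *Flt3* (4199), but not the highest *Cd48* or *Cd34*.

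The gates and genotype were also tested for interaction. No member passed for genotype by CD135, where 0.0123% of all genes did, for genotype by GFP, where 0.00617% did, or for CD135 by GFP, where 0.13% did. By limma at an unadjusted p under 0.05 the counts of members were 2, 0 and 1, where 6.32, 4.36 and 6.69% of all genes had one. In genotype by CD135 those members were *Ly6a*, whose step from HSC to LMPP was larger in KO by 1.43 on the log2 scale (95% interval 0.11 to 2.75, limma adjusted p = 0.764), and *Cd48*, at -0.68 (adjusted p = 0.771). In CD135 by GFP it was *Flt3*.

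The pair of SLAM genes was set against each other, since CD150 without CD48 is the sorting signature of long-term stem cells. The log2 ratio of *Slamf1* to *Cd48* was highest in GFP-negative HSC, at -1.49 ± 0.29 (SD, n = 3) in Ctrl and -1.70 ± 1.14 in KO. It was lower in GFP-negative LMPP, at -3.45 ± 0.84 in Ctrl and -2.46 ± 0.13 in KO. GFP-positive HSC stood at -4.07 ± 0.46 and -4.29 ± 0.13, and GFP-positive LMPP at -4.81 ± 0.61 and -4.46 ± 0.73. All GFP-positive groups thus had lower mean ratios than all GFP-negative groups, but single libraries overlapped. Ctrl LMPP GFP-negative replicates 2 and 3 (-3.92 and -3.94) lay below Ctrl HSC GFP-positive replicates 1 and 2 (-3.85 and -3.76). They also lay below KO LMPP GFP-positive replicate 3 (-3.62). Within GFP-negative KO cells, HSC replicate 3 (-2.92) lay below all LMPP libraries (-2.54 to -2.31). Between GFP gates the averaged difference was -2.13 and negative in 6 of 6 description numbers (exact permutation p = 0.03125, two-sided, or 0.0505 adjusted over the 21 tests). For the CD135 gate it was -0.91 and negative in 5 of 6 (exact p = 0.0625, adjusted 0.0938). For genotype it was 0.23 (exact p = 0.1, the smallest possible).

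**Figure D4:**
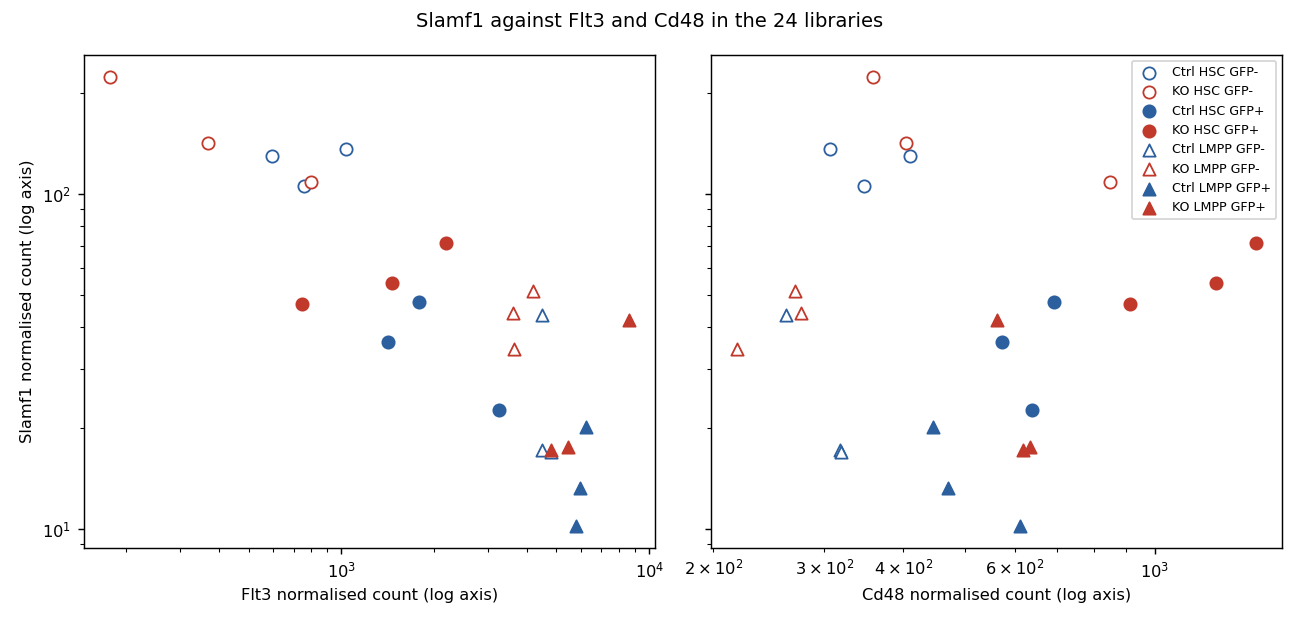
*Slamf1* (vertical axes) against *Flt3* (left panel) and *Cd48* (right panel) in normalised counts, log axes, 1 point per library, with circles for HSC, triangles for LMPP, filled for GFP-positive, blue for Ctrl and red for KO. The 6 GFP-negative HSC libraries lie at the top, between 105 and 223 for *Slamf1*, and the 3 KO GFP-positive HSC libraries lie furthest right in the right panel, between 913 and 1449 for *Cd48*.

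Other genes of the same families and of the same cells were read from fixed lists, with values as averaged log2 differences. Of 6 other SLAM receptors tested, *Ly9* rose in LMPP (1.39) and *Slamf6* rose in GFP-positive cells (1.29), and no other call was made with either gate. *Ly9* by CD135 was 0.84 without the 2 libraries of low detection (limma adjusted p = 0.016), and it then also rose with GFP (0.72, adjusted p = 0.039). Of 4 other *Ly6* family genes, *Ly6c2*, a monocyte and granulocyte progenitor gene, fell in LMPP (-3.53), where *Ly6a* rose, and *Ly6d*, an early lymphoid marker, rose with GFP (1.37), where *Ly6a* fell. The other class III receptor kinase to pass was *Csf1r*, the receptor for macrophage colony-stimulating factor, which rose with GFP (1.91), 1 of 2 genes tested on its list.

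Among 20 other surface genes of stem and multipotent cells, 7 fell and 4 rose in GFP-positive cells (list median -0.51 against -0.14 over all genes). The falls included *Procr*, the endothelial protein C receptor of stem cells (-2.94), and *Esam* (-2.63). The widest change was a rise of *Il7r*, the interleukin 7 receptor of lymphoid cells (4.29). For LMPP against HSC 3 of the 20 rose and 3 fell, with *Itga2b*, the platelet integrin CD41 (-3.72), *Cd74* (2.75), *Ccr9* (2.0) and *Tek* (-1.98) furthest (list median -0.21 against 0.02). With genotype 1 of the 20 passed, a fall in KO.

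Stem cell transcripts of the same compartment were read for both gates. Of 20 on that list, 12 fell and none rose in GFP-positive cells, led by *Gata2* (-3.15), *Vwf* (-2.96), *Fgd5* (-2.57) and *Hoxb5* (-2.20), with a list median of -1.33. When the 2 libraries of low detection were left out 15 fell, and *Gata2* (-2.20) came behind *Vwf* (-2.89) and *Fgd5* (-2.43). For LMPP against HSC 3 rose and 2 fell, including *Gata2* (-2.12), *Hoxa9* (1.21) and *Hlf* (0.86), with a list median of 0.10. In KO 1 rose, *Pdzk1ip1* (2.20), and 1 fell, *Ifitm1* (-1.18). *Gata2* also rose in KO when the 2 libraries of low detection were left out (1.51, limma adjusted p = 9.4e-06). Of 15 lymphoid and multipotent transcripts, 10 rose and 1 fell in LMPP (list median 0.92), and 11 rose and none fell in GFP-positive cells (1.19). *Dntt*, the terminal transferase of lymphoid progenitors, rose with both gates, by 2.93 and 2.90. *Mpo*, myeloperoxidase, fell in LMPP (-2.49) and rose with GFP (2.12), and it fell in KO (-1.84), the one call of the list by genotype.

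Genes of other lineages also differed across the gates, beside the members' values. For LMPP against HSC, 6 of 10 myeloid genes fell and none rose, led by *Elane* (-5.51), *Ly6c2* (-3.53), *Ctsg* (-3.48) and *Mpo* (-2.49). On the mast cell and basophil list 6 of 11 fell and none rose, led by *Cpa3* (-5.72), *Gzmb* (-3.58), *Ms4a2* (-3.46) and *Hdc* (-2.55), and of 7 megakaryocyte genes 3 fell (*Itga2b*, *Pf4* and *Gp1bb*). Of 13 erythroid genes 1 fell, *Car1* (-3.11), and of 7 T and NK genes 3 fell, *Trbc1* (-3.03), *Tcf7* (-2.79) and *Bcl11b* (-1.36). The T and NK sum was 657, 4583 and 1180 in Ctrl HSC GFP-positive replicates 1 to 3, highest in the library of low detection. With GFP all 7 megakaryocyte genes fell, including *Pf4* (-3.50), *Vwf* (-2.96) and *Itga2b* (-2.52), while 6 of 13 erythroid genes and 6 of 11 mast cell genes fell and 1 erythroid gene, *Tfrc* (0.79), rose. Also with GFP, 3 of 10 myeloid and 3 of 7 T and NK genes rose. Of 2 B cell genes tested *Ebf1* rose (1.43), and of 4 stromal and endothelial genes *Pecam1* rose (1.0). With genotype 2 of 10 myeloid genes fell, *Ctsg* (-2.13) and *Mpo*, and 1 of 7 T and NK genes fell, *Bcl11b* (-1.10), while none on the megakaryocyte, B cell or stromal lists passed. Of 8 lineage exclusion genes tested, *Itgax*, the CD11c gene, rose with CD135 (1.76) and with GFP (2.07). Without the 2 libraries of low detection, *Bcl11b* did not pass the filter on low values, so that 2 of 6 T and NK genes fell with CD135, 2 rose with GFP and none passed with genotype. *Mcpt2* of the mast cell list was then lost for CD135 (5 of 11 fell), and *Gp9* and *Gp1bb* for GFP (5 of 7 megakaryocyte genes fell). The other averaged calls on these and the foregoing lists were kept in their direction, while some counts grew, as for the 20 other surface genes by CD135 (6 rose and 9 fell) and for myeloid genes by GFP (5 of 10 rose). The part of these lists in the members' differences was not tested.

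The members' likeness to each other and to the rest of the transcriptome was described by Pearson's r of log2 values over the 24 libraries, which share 8 groups, so that r mostly reflects group differences. *Flt3* and *Slamf1* ran most opposite (r = -0.859), and *Flt3* and *Cd34* ran most together (0.776). *Kit* went with *Slamf1* (0.690) and against *Flt3* (-0.692). Among 9755 genes ranked, the 3 most like *Flt3* were *Tlr7* (0.930), *Ddx4* (0.917) and *Notch1* (0.906). Those most like *Kit* were *Plxdc2* (0.889), *Angpt1* (0.845) and *Itga6* (0.838), and those most like *Slamf1* were *Sept8* (0.843), *Gse1* (0.839) and *Pf4* (0.821). *Ly6a* was followed by *Pglyrp2* (0.876), *Shisa5* (0.820) and *Cyp4v3* (0.812). *Cd34* was followed by *H2afy* (0.856), *Ramp1* (0.819) and *Degs2* (0.811), and *Rad18* (0.781) and *Cst7* (0.780) were among the 3 most like *Cd48*.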

How the data were processed

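The deposited signal values are normalised counts per gene, made by the authors. The authors used Trimmomatic 0.33, HTSeq 0.6.1 and edgeR (no version) with mm10, per the submitters' processing notes. The aligner and the normalisation function are not given in the sources used here. Whole reads could not be recovered, since 0.594% of values above 0 came within 0.001 of an integer, and count models were not used.

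GENCODE M21 named 16978 of 17149 genes, and 171 had no entry. Genes with at least 1 ppm of the library total in at least 3 libraries were kept (16215). Tests used log2(value + 4.1), the pseudocount being 0.5 ppm of the mean library total, which understates changes of low genes. With limma 3.58.1 (R 4.3.3), the 24 libraries entered 1 fit of 8 group means, moderated by empirical Bayes against a trend in intensity. A gene passed at a Benjamini-Hochberg adjusted p under 0.05 over all genes tested. Comparisons were 12 single, 3 averaged and 3 interactions. Folds are on this scale, means and SDs on normalised counts.

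The members, lists and tests were chosen with earlier results of these data known. Up to 4 passing genes of each list, those with the largest change, were named, and the 3 genes most correlated with each member among genes of at least 5 ppm. A few of these names are not reported here, though all counts cover them. Alternatives were other pseudocounts, filters and scalings, array weights, blocks, and leaving out libraries.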

Additional observations from a re-analysis of the deposited data

How the results depend on the processing

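Alternatives were run one at a time. The 10 averaged calls kept their direction and their side of the threshold in all of them except *Slamf1* by GFP under quantile normalisation (-0.80), and the counts of averaged calls were 5 or 6 for the CD135 gate, 4 to 6 for the GFP gate and 0 for genotype, with 0 for the interactions. No called value reversed sign in any alternative. The count of 6 calls over the 12 single comparisons was 15 with array weights, 13 without the 2 libraries of low detection, 10 with the description number as a random block and 9 with a replicate block. Leaving out 1 library gave 3 to 10 calls, with 3 without KO HSC GFP-negative replicate 1 and 10 without Ctrl HSC GFP-positive replicate 1. The cause was not tested.

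Of the 6 single calls, 4 were lost under at least 1 of the other settings. *Cd48* by GFP in KO LMPP missed with a pseudocount of 0.1 ppm (adjusted p = 0.0523), library totals (0.169), quantile normalisation (0.0731) and its 6 libraries alone (0.322). *Ly6a* in KO GFP-negative cells missed with that pseudocount (adjusted p = 0.0543). *Flt3* by GFP in KO HSC missed with library totals and with its 6 libraries alone (adjusted p = 0.0555 and 0.0823), and *Flt3* in KO GFP-positive LMPP against HSC missed with its 6 libraries alone (0.174). Replicate numbers did not meet the bar of a correlation over 0.1 in every pair, although same-numbered libraries were more alike. Their deviations had a mean r of 0.041 over 48 pairs, 5 of them over 0.1, against -0.020 and 0 of 96 for different numbers. Those sharing a description number had a mean of 0.069 over 36 pairs, 8 of them over 0.1, against -0.034 and 1 of 72. The replicate block added calls for *Cd34* by GFP, averaged (0.43, adjusted p = 0.0431), and left the other averaged calls as they were.

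Only values that had not passed changed sign. With library totals these were the genotype difference in GFP-positive HSC for *Kit* (0.24) and *Cd34* (0.16) and in LMPP GFP-positive cells for *Flt3* (-0.20) and *Cd34* (-0.12), *Cd34* by GFP in Ctrl LMPP (-0.064), and genotype by CD135 for *Kit* (-0.20), *Cd34* (-0.18) and *Slamf1* (-0.19). With median ratio size factors it was *Cd34* in Ctrl GFP-positive LMPP against HSC (-0.029). With quantile normalisation, in the same comparisons, they were *Kit* (0.12), *Flt3* (-0.18), *Cd34* (-0.13 and, by GFP, -0.10) and, in genotype by GFP, *Slamf1* (-0.0088). Array weights gave *Flt3* -0.21 and *Cd34* -0.13 by genotype in LMPP GFP-positive cells, genotype by GFP 0.085 for *Ly6a* and -0.036 for *Slamf1*, and CD135 by GFP 0.07 for *Cd48*. Without the 2 libraries of low detection, genotype in HSC GFP-positive cells was 0.038 for *Kit* and 0.30 for *Ly6a*, and in LMPP GFP-positive cells it was -0.23 for *Flt3* and -0.15 for *Cd34*. Genotype by CD135 was then -0.090 for *Slamf1*, genotype by GFP 0.46 for *Ly6a*, and CD135 by GFP 0.016 for *Cd48*.

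On leaving out 1 library, ranges that crossed 0 were as follows. For *Ly6a* they were -0.23 to 0.37 by genotype in HSC GFP-negative cells, -1.49 to 0.30 in HSC GFP-positive cells, -0.33 to 1.47 in Ctrl GFP-positive LMPP against HSC, -1.40 to 0.40 by GFP in Ctrl HSC and -0.63 to 0.26 for genotype by GFP. For *Cd34* they were -0.041 to 0.23 in Ctrl GFP-positive LMPP against HSC, -0.085 to 0.20 by GFP in Ctrl LMPP and -0.15 to 0.31 by genotype in LMPP GFP-positive cells. For *Flt3* the last was -0.23 to 0.19. *Kit* ranged from -0.35 to 0.038 by genotype in HSC GFP-positive cells. On leaving out all libraries of 1 replicate number, its genotype difference averaged over description numbers ranged from -0.014 to 0.30. *Slamf1* ranged from -0.076 to 0.26 for genotype by GFP, and *Cd48* from -0.23 to 0.075 for CD135 by GFP.

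Over all genes, 677 passed for the CD135 average, 1487 with array weights and 1369 without the 2 libraries of low detection. For genotype 76 passed, 182 and 142 under these settings and 50 with the random block. In the 12 single comparisons 7 to 441 genes passed, 4 to 1059 with array weights and 6 to 722 without the 2 libraries, and the count moved by over 1.5 times in 11 and 9 of them. Depth in reads is unknown, so no counting error can be given for genes of low values such as *Slamf1*.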
